A study of Mus musculus with 8 samples.

Results

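The Fos and Jun genes of the AP-1 transcription factor family were followed in RNA-seq libraries of the nucleus accumbens, a reward region of the ventral striatum. There were 4 libraries from morphine-treated and 4 from saline-treated male mice of the C57BL/6 strain. The members were chosen by symbol as the 7 mouse genes Fos, Fosb, Fosl1, Fosl2, Jun, Junb and Jund, and all 7 of the 22337 genes in the deposited table that carry these symbols were used. The series title calls the exposure chronic. Age, dose, schedule and the delay before tissue collection are not stated in the labels, nor is any transgene or deletion in either group. Whether each library came from its own mouse is not stated, so the p-values reflect library-to-library spread that may be partly technical.

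AP-1 is a dimer of basic leucine zipper (bZIP) proteins. Fos proteins bind DNA only with a partner, usually a Jun protein, while Jun proteins can also pair with each other. Several of the genes are immediate early genes, switched on within minutes of neuronal activity by transcription factors that calcium, cAMP and ERK signals activate. In the striatum of rodents, ΔFosB, a truncated and stable protein made by alternative splicing of Fosb, accumulates after repeated drug exposure, and JunD is described as its main partner there. The values below are gene totals and do not separate the Fosb isoforms.

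Levels are given in FPKM (fragments normalised to transcript length and library size), a scale that allows only a rough comparison between genes. Differences between genes in GC content, or in bases shared with another gene, were not adjusted for here. Between 12287 and 12347 genes reached an FPKM of 1 in the morphine libraries and between 12527 and 12655 in the saline libraries, without overlap. The table gives no library totals, but low values of genes with a single annotated transcript fell into steps. Of these values, 68.7 to 78.1% lay within 0.1 of a whole number of fragments. Evenly spread remainders give 20% for a step fixed beforehand. The step was fitted to the same values in each library, so 20% is not the chance level here. The steps give an estimated depth, in units of 1e+06 fragments, of 13.5 to 19.2 in the morphine libraries and 12.3 to 15.2 in the saline libraries. Saline replicate 3 stood apart. The summed FPKM of 18 marker genes of striatal projection neurons was 446.4 to 558.8 in the morphine libraries and 1326 to 1579 in 3 saline libraries, while saline replicate 3 had 6221. For 12 cortical glutamatergic markers the sums were 353.8 to 463.9 in the morphine libraries and 311.3 to 398.6 in those 3 saline libraries, while saline replicate 3 had 90.25. Glial and vascular markers were also lower in every morphine library: the sums were 1383 to 1728 in morphine and 1955 to 2572 in saline libraries for 9 astrocyte markers, 1940 to 3091 and 3100 to 3522 for 8 oligodendrocyte markers, and 113.9 to 125 and 156.6 to 181.8 for 8 endothelial markers. Those of 8 microglial markers overlapped, at 456.2 to 477.2 in morphine and 408 to 583.9 in saline libraries. Of the single markers, 12 striatal, 3 endothelial and 1 astrocyte gene fell and 1 cortical gene rose. The part of these differences in the results below was not tested beyond the settings given there. No marker on these lists was under an FPKM of 1 in every library. Mitochondrially encoded genes took 6.095 to 7.94% of the FPKM in the morphine libraries and 9.085 to 12.625% in the saline libraries.

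The stretches before the start sites of Fos, Fosb, Jun and Junb are shown because these genes had the largest differences between the groups of the 6 members tested. Each is the 120 bases before the RefSeq start in GRCm38.p6, with capitals marking the short CRE core TGACG (a site of the cAMP response element binding family), the TATA box TATAAA and TGACATCA, a variant AP-1 site.
Fos (chr12:85473770-85473889, plus strand): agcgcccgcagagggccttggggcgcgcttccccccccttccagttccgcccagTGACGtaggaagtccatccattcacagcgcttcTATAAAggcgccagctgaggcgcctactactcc
Fosb (chr7:19310046-19310165, minus strand): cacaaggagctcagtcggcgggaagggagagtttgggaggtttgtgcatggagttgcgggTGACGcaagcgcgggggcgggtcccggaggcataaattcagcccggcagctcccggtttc
Jun (chr4:95052223-95052342, minus strand): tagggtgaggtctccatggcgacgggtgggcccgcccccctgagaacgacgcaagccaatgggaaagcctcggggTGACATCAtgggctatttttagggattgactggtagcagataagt
Junb (chr8:84978749-84978868, minus strand): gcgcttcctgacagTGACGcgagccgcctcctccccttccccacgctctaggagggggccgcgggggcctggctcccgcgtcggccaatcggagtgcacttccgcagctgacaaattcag

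Windows of 250 bases before to 50 after the RefSeq start were matched by symbol for 6 members. Both strands were searched. TGACG was found in the windows of 3 of them, Fos, Fosb and Junb, and in 20.8% of 32851 windows of the same length. In Fos it began at −129, outside the stretch shown, and at −66, counted back from the start base, in Fosb at −60 and in Junb at −106. TATAAA was found at −33 in Fos and at the start base itself in Junb, whose GENCODE start lies 30 bases further downstream, and in 13.6% of all windows. The full AP-1 motif TGANTCA (7.81% of all windows), the full CRE TGACGTCA (1.79%), TGACGTAA (0.499%) and the CArG box of serum response factor (1.63%) had no match in these 6 windows. Sites more than 250 bases before the start were not searched, so the promoters may hold these motifs further upstream. TGACATCA, added after the windows were read, was found at −45 in Jun and in 3.62% of all windows. A TGACG match can lie inside a CRE match. The Fosl2 and Jund windows are built on RefSeq starts 671 and 1210 bases away from the GENCODE starts of these genes and are not shown.

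Junb, Fos and Jun made up most of the family's transcripts in both groups. The summed FPKM of the 7 members was 163.4, 131.1, 175.7 and 143.8 in morphine replicates 1 to 4, against 65.83, 62.16, 120.9 and 78.93 in saline replicates 1 to 4. Junb supplied 30.8 to 48.8% of that sum in the morphine libraries and 31.7 to 52% in the saline libraries, Fos 24.7 to 34.8% and 20.4 to 26.5% in the same order of groups, and Jun 16.1 to 24.3% and 16.5 to 28.5%. The morphine sums all lay above the saline sums, and saline replicate 3 came closest to them.

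**Figure D1:**
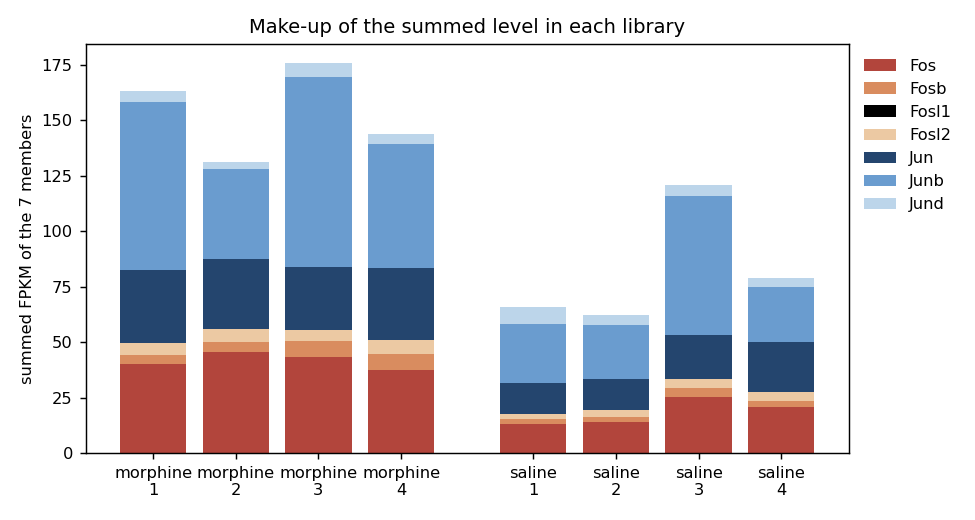
Summed FPKM of the 7 members (vertical axis) in each morphine and saline library, with each bar divided by gene. The morphine sums run from 131.1 to 175.7 FPKM and the saline sums from 62.16 to 120.9 FPKM, and Junb, Fos and Jun fill most of every bar.

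In the order of mean levels in morphine libraries, Junb (64.4 ± 20.2 FPKM) stood above Fos (41.7 ± 3.6), Jun (31.5 ± 2.16), Fosb (5.71 ± 1.66), Fosl2 (5.5 ± 0.638) and Jund (4.66 ± 1.37; SD, n = 4 each), with Fosl1 last. In saline libraries the order was Junb (34.6 ± 18.8 FPKM), Fos (18.5 ± 5.7), Jun (17.6 ± 4.28), Jund (5.12 ± 1.73), Fosl2 (3.38 ± 0.703), Fosb (2.75 ± 0.916; SD, n = 4 each) and Fosl1. The gap between the 3 abundant members and the others held in every library of both groups. The ranges of Fos and Jun did not overlap in the morphine libraries and overlapped in the saline libraries. Neighbours among Fosb, Fosl2 and Jund had overlapping ranges in both groups. The order between genes, and the place of Jund in it, is subject to the limits of FPKM given above.

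**Figure D2:**
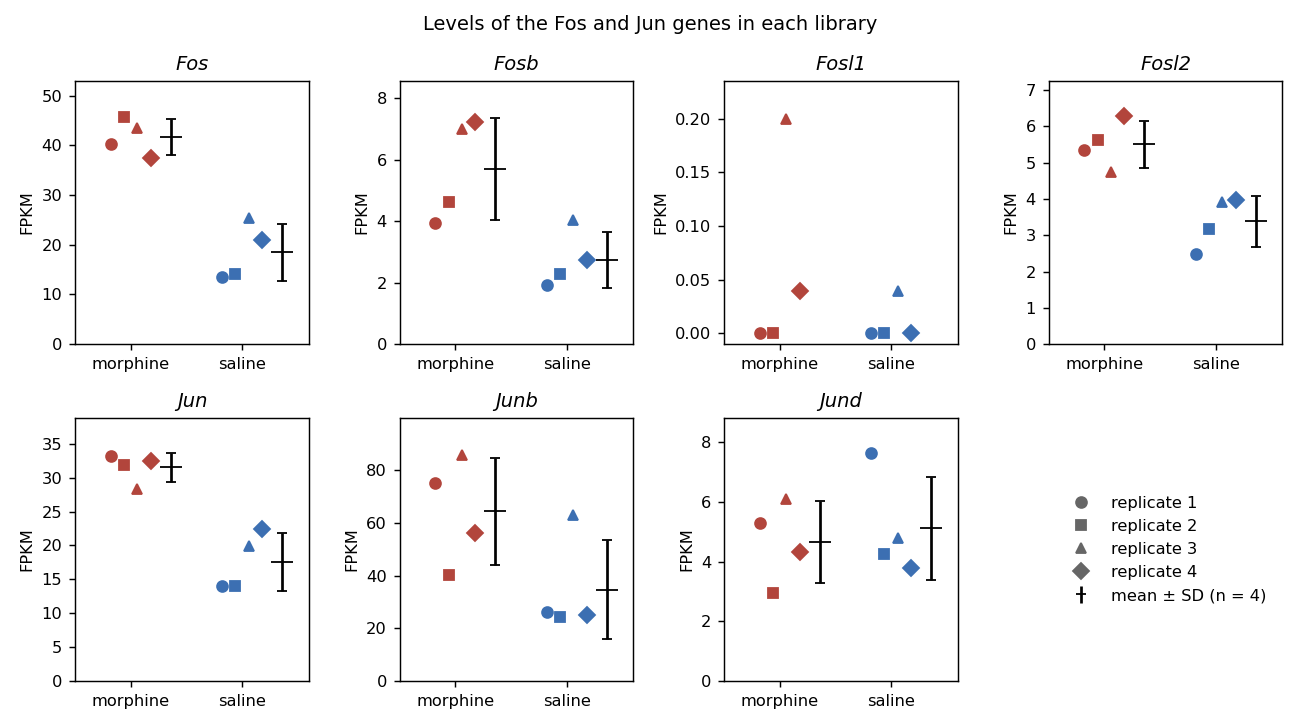
FPKM (vertical axis, separate scale per gene) of each of the 7 members in the 4 morphine and 4 saline libraries; each symbol is a library and the bar is the mean ± SD, left out for Fosl1. Fos, Jun and Fosl2 show no overlap between the groups, and the saline triangle of Junb is saline replicate 3 at 62.84 FPKM.

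Fos and Jun rose with morphine. A gene was tested when 4 or more libraries reached an FPKM of 1, which 6 members did. Each change is the morphine mean minus the saline mean of log2(FPKM + 1), a scale that understates the change of genes with low FPKM. Of these 6, 2 passed limma's test over all 12536 genes tested (Benjamini-Hochberg adjusted p under 0.05), both higher, none was lower, and 4 did not pass. Over all genes tested 1.04% were called higher and 1.48% lower. The median change of the 6 members was 0.83, and that of all genes tested was 0.012. In 3 of the 6 members, Fos, Jun and Fosl2, all morphine values lay above all saline values, an arrangement seen in 6.56% of all genes tested. Of the calls over all genes 41.1% were higher, and 21.4% when mitochondrially encoded genes were removed and the rest rescaled.

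Fos, the inducible subunit used most widely as a marker of recent neuronal activity (ENSMUSG00000021250, chromosome 12, 85473890 to 85477273, plus strand, GRCm38), had 40.3, 45.61, 43.5 and 37.42 FPKM in morphine replicates 1 to 4, against 13.46, 14.16, 25.38 and 20.92 FPKM in saline replicates 1 to 4. The groups did not overlap, and the 4 morphine values lay close together (coefficient of variation 8.62%, against 30.8% in saline). The change was 1.17 ± 0.19 (log2, SE; adjusted p = 0.0207), and its p ranked 41 among the genes tested. An estimated 1129 to 1634 fragments in the morphine libraries and 429 to 782 in the saline libraries stood behind these values, so that counting error was at most 4.83%. The direction was kept when any 1 library was left out (1.05 to 1.34), but the test was passed in 4 of these 8 settings and missed without saline replicate 2 or morphine replicate 2, 3 or 4 (adjusted p 0.0553 to 0.0817).

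Fosb (ENSMUSG00000003545, chromosome 7, 19302696 to 19310051, minus strand) had 3.95, 4.64, 7 and 7.24 FPKM in morphine replicates 1 to 4, against 1.94, 2.28, 4.03 and 2.73 FPKM in saline replicates 1 to 4. The groups overlapped only through saline replicate 3, which lay just above morphine replicate 1. The difference of 0.84 ± 0.22 (log2, SE) missed the threshold (adjusted p = 0.0719). Leaving out saline replicate 3 gave a difference of 0.99, which passed (adjusted p = 0.0403), and in the other 7 settings that left out 1 library it did not.

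Fosl2, a Fos relative whose product lacks the strong activation domain of Fos (ENSMUSG00000029135, chromosome 5, 32135801 to 32157842, plus strand), had 5.36, 5.62, 4.74 and 6.28 FPKM in morphine replicates 1 to 4, against 2.49, 3.16, 3.91 and 3.98 FPKM in saline replicates 1 to 4. Every morphine value lay above every saline value. The difference of 0.58 ± 0.15 (log2, SE) did not pass (adjusted p = 0.0744), nor did it pass when any 1 library was left out (adjusted p 0.0651 to 0.174).

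Fosl1, a Fos relative known for induction in growth-stimulated cells (ENSMUSG00000024912, chromosome 19, 5447547 to 5455946, plus strand), was listed at 0, 0, 0.2 and 0.04 FPKM in morphine replicates 1 to 4, against 0, 0, 0.04 and 0 FPKM in saline replicates 1 to 4. By the estimated depth the values above 0 correspond to 5 and 1 fragments in the morphine libraries and to 1 in saline replicate 3. It failed the filter on low values, and both groups were at or near the level of single fragments. Its longest coding transcript shares 1163 of 1864 bases with Ccdc85b on the other strand, which had 25.19 to 36.05 FPKM in the morphine libraries and 21.86 to 29.34 FPKM in the saline libraries. The protocol names no strand marking, so reads in the shared stretch cannot be told apart.

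Among the Jun genes, which have a single exon each in their coding transcript, Jun rose. Jun, the most potent activator of the Jun proteins (ENSMUSG00000052684, chromosome 4, 95049034 to 95052222, minus strand), had 33.23, 31.91, 28.37 and 32.52 FPKM in morphine replicates 1 to 4, against 14.05, 13.98, 19.9 and 22.49 FPKM in saline replicates 1 to 4. The groups did not overlap, and the morphine values varied less (6.86%) than the saline values (24.3%). The change was 0.83 ± 0.16 (log2, SE; adjusted p = 0.0319). When 1 library was left out it lay between 0.737 and 0.953, and the test was passed only without saline replicate 3 or without saline replicate 4 (adjusted p 0.0679 to 0.0922 in the other 6 settings). Jun shares 232 of its 3189 transcript bases with the antisense gene Junos.

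Junb, an inducible subunit that can dampen the activity of Jun (ENSMUSG00000052837, chromosome 8, 84974484 to 84978718, minus strand), had 75.28, 40.37, 85.75 and 56.02 FPKM in morphine replicates 1 to 4, against 26.25, 24.33, 62.84 and 25.01 FPKM in saline replicates 1 to 4. Saline replicate 3 lay above 2 of the morphine libraries, while the other saline libraries lay below all of them. The difference of 0.94 ± 0.31 (log2, SE) missed the threshold (adjusted p = 0.134). Leaving out saline replicate 3 gave 1.26, which passed (adjusted p = 0.0222). The spread within morphine libraries (coefficient of variation 31.4%) was far above the estimated counting error of 1.95 to 3.19%.

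Jund, known as the subunit that is present without stimulation (ENSMUSG00000071076, chromosome 8, 70698949 to 70700616, plus strand), had 5.28, 2.93, 6.11 and 4.32 FPKM in morphine replicates 1 to 4, against 7.64, 4.25, 4.79 and 3.8 FPKM in saline replicates 1 to 4. The groups overlapped. The difference of −0.11 ± 0.23 (log2, SE; 95% interval −0.61 to 0.39) did not pass (adjusted p = 0.834), and its sign turned without morphine replicate 2 (0.056) and without saline replicate 1 (0.070). An estimated 66 to 169 fragments in the morphine libraries and 78 to 194 in the saline libraries stood behind these values, which is the least of the 6 members tested. Jund shares 877 of its 1668 transcript bases with Gm11175 on the other strand.

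**Figure D3:**
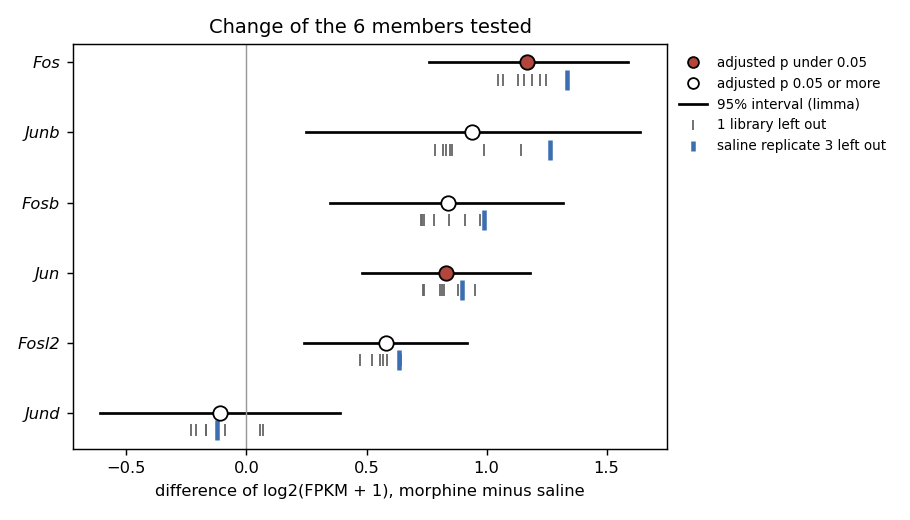
Difference of log2(FPKM + 1), morphine minus saline (horizontal axis), for the 6 members tested; circles are estimates (filled where adjusted p is under 0.05), lines their 95% intervals, and ticks the estimates with 1 library left out. Fos (1.17) and Jun (0.83) are filled, Jund sits at −0.11, and the tick without saline replicate 3 is the rightmost one for Fos, Junb and Fosb.

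Saline replicate 3 held the highest saline value of Fos, Fosb and Junb and the second highest of Fosl2, Jun and Jund. Without it 4 of 6 members passed, Fos (1.34), Jun (0.90), Junb (1.26) and Fosb (0.99; log2), where 0.92% of all genes were called higher. With the mean of the striatal marker list as a covariate no member passed: Fos had a difference of 1.86 ± 0.28 (adjusted p = 0.0889), Jun of 1.18 ± 0.29 (adjusted p = 0.232) and Junb of 2.26 ± 0.41 (adjusted p = 0.134; log2, SE). Within the groups the summed level of that list differed most in saline replicate 3, so the adjustment rests largely on that library. The summed level does not overlap between the groups, so its effect and that of morphine cannot be told apart. In bulk tissue, fewer cells of a type and less RNA per cell cannot be told apart either.

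How the members moved relative to each other was asked with 2 ratios within a library. With 4 against 4 libraries, neither ratio could pass after adjustment unless both did. The log2 ratio of Fosb to Fos, on values plus 1, was −3.061, −3.047, −2.476 and −2.221 in morphine replicates 1 to 4, against −2.298, −2.209, −2.391 and −2.555 in saline replicates 1 to 4. The groups overlapped, and the difference of −0.34 was not past the threshold (exact two-sided permutation test over 70 assignments, p = 0.229, also 0.229 adjusted over the 2 ratios). The log2 ratio of Fos to Jund was 2.717, 3.568, 2.646 and 2.852 in morphine replicates 1 to 4, against 0.743, 1.53, 2.188 and 2.191 in saline replicates 1 to 4. All morphine values lay above all saline values, with a difference of 1.28 (exact permutation p = 0.0286, the smallest that 4 against 4 libraries allow; 0.0571 adjusted over the 2 ratios).

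In 4 lists of partners and regulators of the Fos and Jun genes or their proteins no gene passed the test, where 1.04% of all genes tested were called higher and 1.48% lower. Under 1 call is the number those shares give in lists of this size, so the counts of 0 are near the background. Of 19 tested transcription regulators upstream of them (serum response factor, its Elk and MRTF partners, CREB family members and coactivators), 0 passed, with a median change of 0.12, and the smallest p belonged to Mrtfb, a coactivator of serum response factor, at 42.7 ± 3.44 FPKM in morphine libraries and 34.9 ± 6.34 FPKM in saline libraries (SD, n = 4 each; adjusted p = 0.274). Of 19 ERK and JNK pathway kinases and scaffolds 0 passed, with a median of 0.06, and the smallest p belonged to Mapk3, an ERK kinase gene, with a difference of 0.23 ± 0.13 (log2, SE; adjusted p = 0.374). Of 10 tested genes of Jun and Fos protein turnover and repression 0 passed, with a median of 0.01; the smallest p belonged to Det1, part of a ubiquitin ligase that targets Jun, at −0.31 ± 0.16 (log2, SE; adjusted p = 0.316). Of 11 tested bZIP genes whose products can pair with Fos or Jun or relate closely to them 0 passed, with a median of 0.06; the smallest p belonged to Atf7, a Jun partner, at −0.49 ± 0.19 (log2, SE; adjusted p = 0.181). Over the whole table, 20.1% of the genes tested (2526) had an unadjusted p under 0.05. These genes were measured as transcripts only, and the pathways act largely through phosphorylation, which RNA does not show.

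Among described targets of AP-1, 4 neuropeptide precursor genes fell and none of the tested targets rose. Of 8 tested genes described as ΔFosB targets in striatum of drug-exposed rodents, 1 fell, with a list median of 0.10; over all genes tested 1.48% fell. That gene was Pdyn, the dynorphin precursor, at 6.62 ± 2.36 FPKM in morphine libraries and 84 ± 104 FPKM in saline libraries (SD, n = 4 each; adjusted p = 0.0449). Of the saline libraries, 3 held 20.6 to 40.91 FPKM of it and replicate 3 held 239.08 FPKM. Gria2, an AMPA receptor subunit, and Camk2a, a calcium-dependent kinase, had all morphine values above all saline values, as 6.56% of all genes tested did, and did not pass. Of 16 tested AP-1 targets described in other settings 3 fell, against the same 1.48% of all genes, with a list median of 0.02: Nts, the neurotensin precursor (−1.99 ± 0.24, adjusted p = 0.0159), Tac1, the substance P precursor (−2.18 ± 0.39, adjusted p = 0.0264), and Penk, the enkephalin precursor (−2.46 ± 0.52, adjusted p = 0.0435; log2, SE). In all 3 every morphine value lay below every saline value, as in 6.1% of all genes tested. Inhba, an activin subunit gene on this list, had all morphine values above all saline values, at 11.8 ± 4.32 FPKM in morphine libraries and 6.43 ± 0.582 FPKM in saline libraries (SD, n = 4 each), but missed the threshold (adjusted p = 0.108). When each library was left out in turn, Nts passed in 5 of 8 settings, Tac1 in 3, Penk in 2 and Pdyn in 1, the setting without saline replicate 3. Pdyn, Penk and Tac1 are also on the striatal marker list, whose summed level was lower in every morphine library than in every saline library. The mean of that list as a covariate adjusts these 3 genes partly for themselves. Smaller differences were thus partly fixed beforehand, and they cannot show whether these 3 genes fell apart from the list. With the mean of that list as a covariate their differences were 0.29, −0.25 and −0.25 (log2; adjusted p = 0.888, 0.947 and 0.857), and that of Nts was −1.61 (adjusted p = 0.264).

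Of 23 other immediate early genes tested, 6 rose, 0 fell and 17 did not pass, where 1.04% of all genes tested were called higher. The median change was 0.45, with 19 differences above 0 and 4 below. The 4 with the smallest p were Dusp6, a phosphatase that switches off ERK, with 40.1 ± 5.46 FPKM in morphine libraries and 21.9 ± 2.36 FPKM in saline libraries, Klf10 with 28 ± 4.02 and 12.9 ± 2.76, Nr4a3 with 5.17 ± 0.701 and 2.12 ± 0.506, and Nr4a2 with 19 ± 1.51 and 5.51 ± 2.88 in the same order of groups (SD, n = 4 each; adjusted p = 0.0207 for the first 3 and 0.0281 for Nr4a2). With the striatal covariate none of these 4 passed: the difference was 0.76 for Dusp6, 1.00 for Nr4a3, 0.53 for Klf10 and 0.36 for Nr4a2 (log2; adjusted p = 0.343, 0.325, 0.552 and 0.819), against 0.84, 0.99, 1.07 and 1.76 without it. Those of Fos, Jun and Junb were larger with the covariate. So were those of Arc (log2, 2.40 against 1.14) and Nr4a1 (2.55 against 1.13), also on this list. Arc passed limma's test with the covariate (adjusted p = 0.0195) and Nr4a1 did not (adjusted p = 0.121). Both are named below for their likeness to Fos. Among saline libraries, replicate 3 was lowest for Nr4a2 (1.76 FPKM) and Klf10 (9.37 FPKM). It was highest for Fos, Fosb and Junb, and also for Arc (71.7 FPKM) and Nr4a1 (71.15 FPKM). The striatal marker sum was 6221 FPKM in saline replicate 3 and 1326 to 1579 FPKM in the other saline libraries. The covariate's adjustment therefore rests largely on saline replicate 3, so its results and these levels are not separate observations. The number that rose was 8 without saline replicate 3, 3 without saline replicate 1 or without morphine replicate 1 or 2, and 0 without saline replicate 2 or without morphine replicate 3 or 4.

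**Figure D4:**
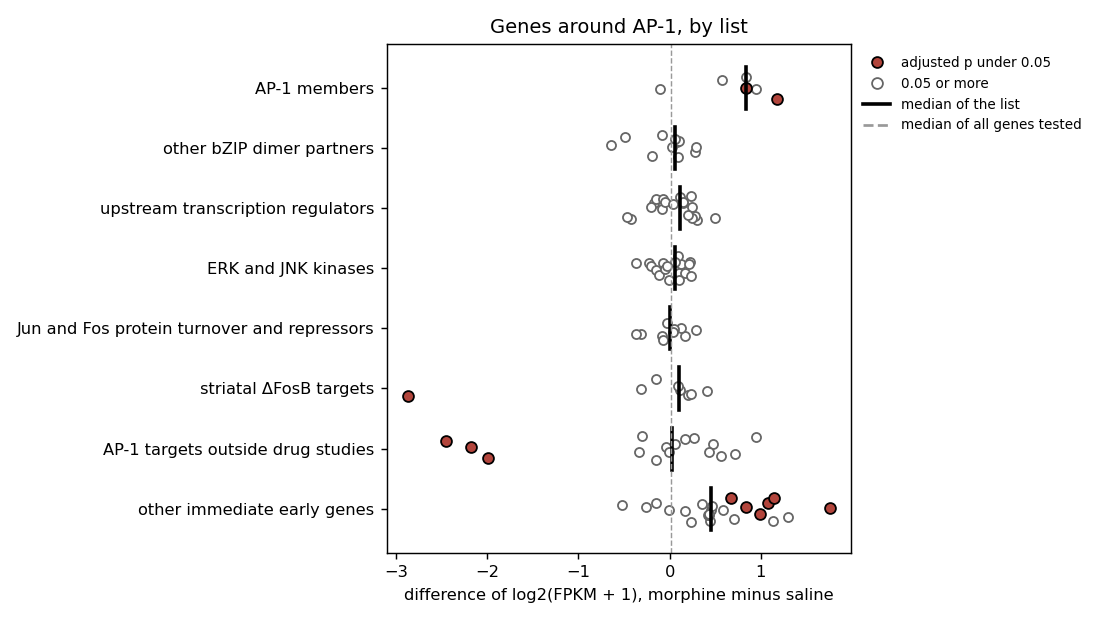
Difference of log2(FPKM + 1), morphine minus saline (horizontal axis), of each tested gene in 8 lists around AP-1; each circle is a gene, filled where adjusted p is under 0.05, and the bar is the list's median. The filled genes of the target lists lie below 0 (Pdyn at −2.87), those of the members and of the other immediate early genes above 0, and the 4 lists of partners and regulators have none.

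The genes whose profile over the 8 libraries was most like that of Fos were found by the root mean square distance after each gene's own mean of log2(FPKM + 1) was subtracted, over 8695 named genes outside the family with a mean FPKM of at least 5. These were Dgkg, a diacylglycerol kinase gene (distance 0.22), Kcng1, a potassium channel subunit gene (0.231), Lrrtm1, a synaptic adhesion gene (0.242), Arc, a synaptic immediate early gene (0.244), and Nr4a1, a nuclear receptor gene induced by activity (0.292). Among the members, Jun lay at 0.24, Fosb at 0.321, Fosl2 at 0.361, Junb at 0.427 and Jund at 0.81. Arc had 107.07, 81.96, 91.09 and 70.49 FPKM in morphine replicates 1 to 4, against 27.18, 32.66, 71.7 and 35.36 FPKM in saline replicates 1 to 4. As for Fos, Fosb and Junb, its highest saline value was in replicate 3, which the choice of Arc by likeness to Fos favours.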

How the data were processed

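RNA of the nucleus accumbens was profiled in 4 morphine and 4 saline libraries. Per the labels' protocols, Trizol-extracted RNA was reverse transcribed from an oligo-dT primer with template switching, amplified by PCR and sequenced on a NovaSeq, with no molecular identifiers or strand marking named. The authors deposited 1 table of FPKM per gene and library, rounded to 2 decimals, per the file headers. The submitters' processing notes name fastp 0.18.0, Bowtie2 2.2.8, HISAT2, StringTie 1.3.1, RSEM and mm10; their roles and the annotation release are not stated there.

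Symbols and coordinates came from GENCODE M21 (GRCm38, the assembly of mm10), in which 22232 of 22337 gene IDs matched, otherwise from the table's own symbols. Between 0.546 and 1.22% of values above 0 were identical between any pair of libraries, so none was a copy. Depth was estimated from the step between low FPKM values times transcript length, in genes with 1 transcript, and fragments per member from its longest coding transcript; counting errors cover counting only. Promoters are from RefSeq (GRCm38.p6).

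limma 3.58.1 in R 4.3.3 (eBayes with trend, two-sided) was run on log2(FPKM + 1) of genes reaching an FPKM of 1 in 4 or more libraries, without a block, and tested on simulated data. The members, gene lists, ratios and naming rule (all members; per list up to 4 genes past the threshold, or else the gene with the smallest p; the 5 genes most like Fos) were chosen with earlier results of these data known. Gria2, Camk2a, Inhba, Nfil3, Xbp1, Dbp, the variant AP-1 site and the shared order of Junb and Jund were named after their values were seen. Alternatives changed the pseudocount, filter, scaling, variance model, block, a striatal covariate, and left out each library.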

Additional observations from a re-analysis of the deposited data

Results flagged for a closer look

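In groups of 4 libraries, a value was looked at again when its distance to the nearest other, divided by the group's range, exceeded Dixon's 95% critical value; chance gives about 1 in 20 groups, and 52 groups were examined, of which 6 had such a value. Of these 6, 4 were in saline replicate 3: Junb at 62.84 FPKM (24.33 to 26.25 in the other saline libraries), Fosl1 at 0.04 FPKM (0 in the others), Pdyn at 239.08 FPKM (20.6 to 40.91 in the others) and Penk at 1683.42 FPKM (353.28 to 467.07 in the others). The other two were in morphine replicate 3: Pdyn at 3.1 FPKM (7.52 to 8.16 in the other morphine libraries) and Kcng1 at 41.12 FPKM (30.29 to 31.75 in the others). The Fosl1 value corresponds to an estimated 1 fragment.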

How the results depend on the processing

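Over the 18 alternatives, the differences of Fos, Fosb, Fosl2, Jun and Junb stayed positive in every setting in which they were tested, between 0.472 (Fosl2 without saline replicate 1) and 2.26 (Junb with the striatal covariate); Fos passed in 11 settings and Jun in 9. The number of members called higher was 2, and 0 without a filter on low values, with the replicate block and with the striatal covariate; leaving out 1 library gave 0 to 4. The genes called higher were 130 and those called lower 186: without a filter 8 and 9, with the replicate block 2 and 3, with the striatal covariate 2 and 0. An FPKM of at least 5 gave 111 lower, and removing mitochondrial genes gave 74 higher. Leaving out 1 library gave 0 to 183 higher and 0 to 212 lower; limma made 0 calls without morphine replicate 3 or 4 or saline replicate 2, where 1936, 2120 and 1955 genes had an unadjusted p under 0.05. The filters change how many genes are tested; otherwise the cause was not tested. The sign turned for Jund (leave-one-out range −0.229 to 0.070, with 0.056 without morphine replicate 2 and 0.070 without saline replicate 1). That of Pdyn turned with the striatal covariate (0.290), a mean that includes Pdyn itself. Both ratios kept their direction in 13 settings (−0.498 to −0.182 for Fosb to Fos, 0.976 to 1.459 for Fos to Jund). Leaving out a library alone gave −0.498 to −0.218 and 0.976 to 1.459. None was past the threshold after adjustment. The smallest p the exact test allows is 0.0286, and 0.125 with the replicate block. A ratio could thus pass only if both did, and with the block neither could. With the replicate number as a block, limma's adjusted p was 0.0537 for Fos, 0.0737 for Jun, 0.0644 for Fosb and 0.0709 for Junb. Without the block it was 0.0719 for Fosb and 0.134 for Junb. The labels give the groups the same numbers and no shared animal. Deviations from the group means correlated between same-numbered libraries by −0.205 to 0.052, and 1 of 4 libraries correlated best with its own number. Whether libraries of the same number share a batch was not tested. Fosl2 and Fosb were not tested at an FPKM of at least 5. Estimated depth limits Jund most, with a counting error of up to 12.3%, and Fosl1 is below what it can resolve.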

Other observations

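The table's own annotation marks 53 genes as bZIP transcription factors, of which 34 were tested. Besides Fos and Jun, 2 of the other 28 rose and 0 fell, where 1.04% of all genes tested were called higher and 1.48% lower: Nfil3, a repressor of clock-controlled genes, had 13 ± 3.12 FPKM in morphine libraries and 4.37 ± 0.245 FPKM in saline libraries (SD, n = 4 each; limma adjusted p = 0.0159), and Xbp1, a factor of the unfolded protein response, had 94 ± 14.7 FPKM in morphine libraries and 58.8 ± 3.98 FPKM in saline libraries (SD, n = 4 each; limma adjusted p = 0.0301). The median change of the other 28 was 0.05 (log2). Dbp, a clock output factor, had all morphine values below all saline values, as 6.1% of all genes tested did, at 17.3 ± 9 FPKM in morphine libraries and 46.9 ± 16.9 FPKM in saline libraries (SD, n = 4 each), but missed the threshold of limma's test (adjusted p = 0.108). Of the 8 bZIP genes with the smallest p, 5 were Fos and Jun members, where 6 of the 34 tested are members. The cut at 8 was not set beforehand. Of these 5 only Fos and Jun passed, and Jund was 29 in that order.

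Junb and Jund ran in the same order over the morphine libraries, highest in replicate 3, then 1, 4 and 2, and not over the saline libraries. Their transcripts have the highest GC content of the members, 62.6% for Junb and 67.1% for Jund, against 51.9% for Fos and 55.5% for Jun. Whether GC content takes part in the order was not tested. The pair was picked after the values were seen, and how often other pairs of genes share an order was not counted.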
